A study of Mus musculus with 16 samples.

Results

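Crosslinked PGC-1α was examined on 10 mouse genes of the SR protein system, namely the SR protein genes Srsf3, Srsf4 and Srsf5, the SR-like genes Tra2a and Tra2b, the nuclear speckle genes Son and Srrm2, the kinase gene Srpk1, and Luc7l2 and Luc7l3. They were taken by name, and these 10 are set against the 13397 genes that held at least 1 PGC-1α cluster in at least 1 library. The material was primary hepatocytes freshly isolated from C57BL/6J mice, starved overnight in culture, and the bound RNA was read by seCLIP, in which ultraviolet light of 254 nm at 400 mJ per cm2 ties protein to RNA before immunoprecipitation (IP) of endogenous PGC-1α. The groups were glucagon (200 nM for 3 h) lower band, glucagon upper band, control lower band and control upper band, with 2 IP libraries in each (written below as glucagon lower 1 and 2, and so on), and the control cells had no glucagon. The labels do not say what the bands are, nor whether replicates came from separate animals or cultures, so the spread between replicates may be technical. The 8 input libraries enter only through the deposited ratios to input.

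SR proteins are splicing factors with an RNA recognition motif and a domain rich in arginine and serine (the RS domain). They bind enhancers in exons and recruit the spliceosome, SRPK1 phosphorylates their RS domains and so controls their entry into the nucleus, and many SR protein genes limit their own output through "poison" exons whose inclusion sends the mRNA to nonsense-mediated decay (NMD). SON and SRRM2 are large RS-domain proteins at the core of nuclear speckles, where splicing factors gather, and the LUC7-like proteins are relatives of a yeast U1 snRNP subunit that affects the choice of 5′ splice sites. PGC-1α, the transcriptional coactivator that glucagon induces in fasting liver, itself carries RS-rich stretches and an RNA recognition motif.

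In these 10 genes PGC-1α was enriched over input mainly in the introns at the 5′ end. No enriched peak lay over an exon of an NMD transcript that touched no exon of a protein-coding transcript. Only 52 clusters lay over such exons, too few to set them apart. An enriched peak is a cluster with a deposited log2 fold over input of at least 3 and a −log10 p of at least 3. The genes held 1959 clusters and 84 enriched peaks over the 8 libraries, and 72 of the 81 enriched intronic peaks lay within 2000 nt of the start of the principal transcript. Luc7l3 had the strongest and most repeated site, Srsf5 the most enriched peaks (17), and Srsf3 none. Only 5 of the 10 genes had enough enriched peaks for a test of glucagon against control, and with so few libraries that test could not reach 0.05 in any gene.

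Reference sequence is printed for stretches of some sites, 5′ to 3′ on the gene's strand, in mm10 (GRCm38) coordinates. Capitals mark the bases that lay under an enriched peak in the most libraries. The Srsf4 stretch was read from the RefSeq promoter table (GRCm38.p6) and the others from GENCODE M21 transcripts that run through the intron. The sites of Luc7l3, Srpk1 and Tra2b and most sites of Srsf4 could not be read this way. The stretches are therefore limited by what could be read and need not represent all sites.
Tra2a listed peak in site 1, chr6:49263478-49263590, minus strand, intron 1: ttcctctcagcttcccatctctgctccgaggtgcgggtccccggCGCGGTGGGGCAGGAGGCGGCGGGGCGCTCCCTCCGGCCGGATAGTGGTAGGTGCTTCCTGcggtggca
Tra2a site 2, chr6:49263212-49263430, minus strand, intron 1: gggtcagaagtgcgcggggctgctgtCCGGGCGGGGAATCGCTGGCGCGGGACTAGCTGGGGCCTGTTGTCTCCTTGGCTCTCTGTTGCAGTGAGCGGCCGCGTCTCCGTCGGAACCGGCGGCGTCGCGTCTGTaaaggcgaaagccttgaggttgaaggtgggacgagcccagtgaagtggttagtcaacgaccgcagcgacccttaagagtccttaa
Srsf5 site 3, its 3′ part, chr12:80946376-80946550, plus strand, intron 1: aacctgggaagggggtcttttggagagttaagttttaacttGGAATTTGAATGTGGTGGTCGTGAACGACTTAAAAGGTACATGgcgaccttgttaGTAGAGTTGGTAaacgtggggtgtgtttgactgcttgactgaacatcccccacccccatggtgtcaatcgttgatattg
Luc7l2 site 1, its 3′ part, chr6:38552131-38552258, plus strand, intron 1: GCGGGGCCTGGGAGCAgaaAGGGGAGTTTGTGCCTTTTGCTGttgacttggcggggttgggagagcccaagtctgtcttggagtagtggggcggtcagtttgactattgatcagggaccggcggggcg
Srsf4 site 1, chr4:131873854-131873974, plus strand, end of exon 1 and start of intron 1: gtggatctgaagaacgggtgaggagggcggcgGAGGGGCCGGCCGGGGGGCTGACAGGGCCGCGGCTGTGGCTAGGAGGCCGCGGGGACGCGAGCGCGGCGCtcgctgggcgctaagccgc
Son site 2, central bases, chr16:91672525-91672554, plus strand, intron 8: GTTTCTTTGTCCTGCTGTACTCCTGACTCC

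The base composition of these stretches was uneven. The Srsf4 stretch had 77.7% G and C, the 2 Tra2a stretches 71.7% (listed peak in site 1) and 63.5% (site 2), the Luc7l2 stretch 60.9% and the Srsf5 stretch 45.7%. In Tra2a the first 500 nt of intron 1 had 71% G and C, the next 500 nt 46%, and the 500 nt after that 38.2%. The Srsf4 stretch spans the 5′ splice site, since exon 1 ends at the coding base before chr4:131873871, where intron 1 begins, and its capitals all lie in the intron. The Luc7l2 stretch also lies under the lincRNA Gm26699 on the opposite strand, and clusters were assigned to genes by strand.

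The number of clusters in a library, which stands here for its unknown read depth, was 26279 and 188011 in the glucagon lower band libraries (replicates 1 and 2), 97629 and 207718 in glucagon upper 1 and 2, 132622 and 178308 in control lower 1 and 2, and 240002 and 260814 in control upper 1 and 2. Glucagon lower band replicate 1 stood apart as the sparsest, and it held 74 member clusters against 169 to 316 in the other 7 libraries. All 7 hepatocyte markers examined (Alb, Apob and others) had clusters, together 29.5 to 118 per 10000 clusters in glucagon libraries and 13.8 to 23.0 in control libraries. Of the markers of other liver cells, 1 of 5 for Kupffer cells, 1 of 5 for endothelium, 0 of 5 for stellate cells and 2 of 5 for cholangiocytes had any cluster, at most 0.0532, 0, 0 and 0.761 per 10000 in glucagon libraries and 0.0754, 0.0417, 0 and 0.500 in control libraries.

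Every member had clusters in every library, and 9 of 10 had an enriched peak. The members' enriched peaks numbered 2 and 11 in glucagon lower 1 and 2, 6 and 17 in glucagon upper 1 and 2, 11 and 16 in control lower 1 and 2, and 9 and 12 in control upper 1 and 2. The median over the 10 genes of the share of clusters that were enriched was 3.02%, beside 0.372% over the 2945 genes with 92 to 335 clusters, the members' own range. Of those 2945 genes 48.4% had no enriched peak, as did 1 of the 10 members. Summed within libraries, 4.10% ± 1.02 of the members' clusters were enriched, beside 2.89% ± 0.796 of the clusters of all genes (SD, n = 8 libraries). The genes were chosen with such results known, so this excess is a description and was not tested.

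**Figure D1:**
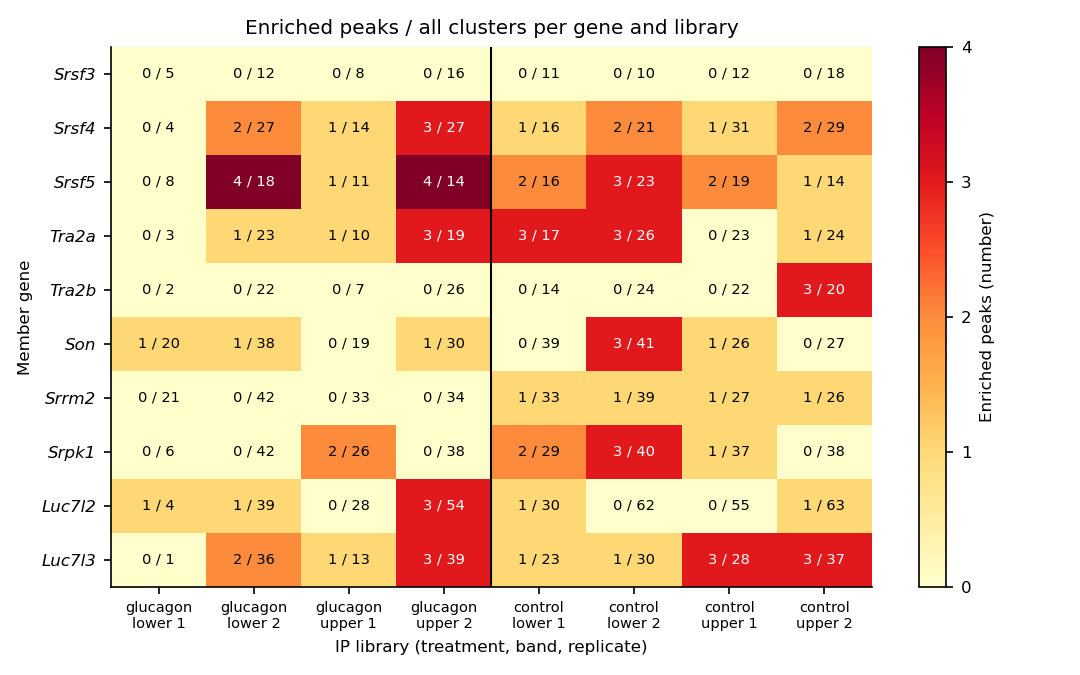
Enriched peaks and all clusters (printed in each cell as enriched / clusters) for each of the 10 genes, down the page, in each of the 8 IP libraries, across, with colour for the number of enriched peaks. Srsf5 reaches 4 in glucagon lower 2 and in glucagon upper 2, Srsf3 is at 0 in all 8 libraries, and the 3 enriched peaks of Tra2b are all in control upper 2.

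The enriched peaks were intronic more often than the clusters they came from. Of the members' 84 enriched peaks 81 (96.4%) were intronic, against 1340 of all their 1959 clusters (68.4%). Of the 81, 58 lay within 500 nt of an exon and 23 deeper. The members' coding exons held 353 clusters and no enriched peak. Over all genes, coding exons held 217755 clusters and 315 enriched peaks, so this count does not set the members apart. The intronic share of enriched peaks was above that of clusters by 30.2 ± 14.7 percentage points (SD, n = 8 libraries). The same direction held over all genes, where 89.0% of enriched peaks and 72.3% of clusters were intronic.

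Distance from the gene's start separated enriched from other intronic clusters, a pattern chosen for description after the values had been seen. The 81 enriched intronic peaks had a median distance of 716 nt from the start of the principal transcript (interquartile range 519 to 1011 nt). The 1259 intronic clusters of the same genes that were not enriched had a median distance of 7652 nt, and 20.4% of them lay within 2000 nt, against 88.9% of the enriched peaks. The first 2000 nt hold 7.54% of the members' intron bases. Within 2000 nt, 72 of 329 intronic clusters (21.9%) were enriched, and farther downstream 9 of 1011 (0.890%). The median deposited log2 fold over input was 2.46 for the near clusters and 1.07 for the far ones.

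This held library by library. The near share was above the far share in 8 of 8 libraries, at 9.09% and 4% in glucagon lower 1, 21.7% and 0.719% in glucagon lower 2, 23.1% and 0% in glucagon upper 1, and 29.6% and 0.641% in glucagon upper 2. In controls the near and far shares were 25.7% and 1.79% in lower 1, 28.6% and 1.82% in lower 2, 11.8% and 0.610% in upper 1, and 18.8% and 0% in upper 2. The narrowest gap was in glucagon lower 1, where 1 of 11 near clusters and 1 of 25 far clusters were enriched. Clusters of a library share their source, and neighbouring clusters can share reads, so no test over clusters was made.

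The same order was seen over all coding genes, with a smaller ratio. Over all coding genes 12.5% of the intronic clusters within 2000 nt and 2.36% of those farther downstream were enriched. Enriched intronic peaks had a median distance of 716 nt in the 10 genes and 7396 nt over all coding genes, where 33.1% lay within 2000 nt. The 10 genes are 5004 to 58137 nt long, and gene length was not matched in this comparison. Neither the base composition nor the level of unspliced RNA at the gene starts was tested for its part in the pattern.

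**Figure D2:**
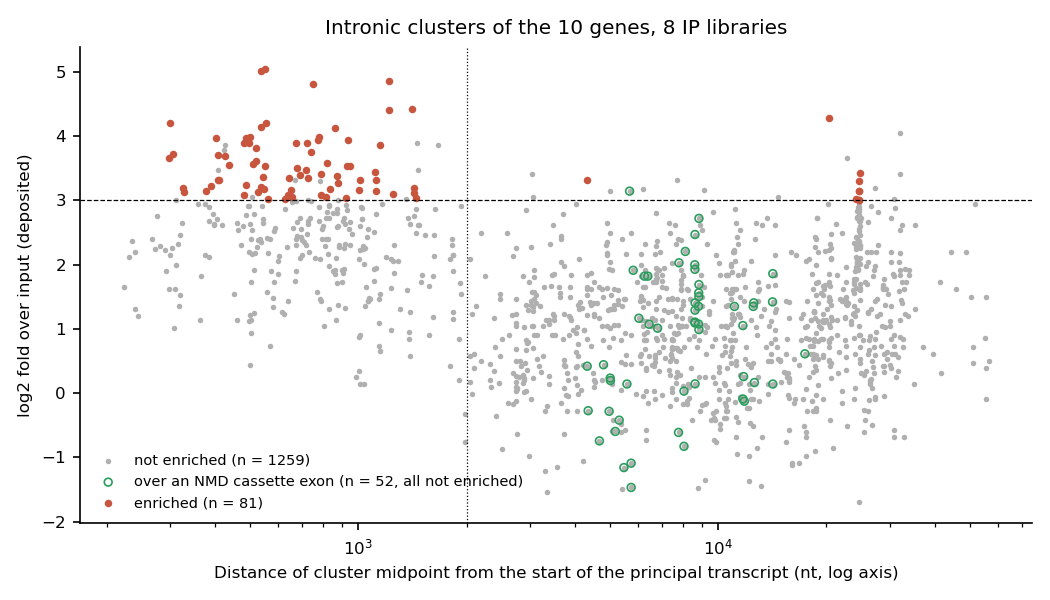
Each point is an intronic cluster of the 10 genes in 1 of the 8 IP libraries, with its distance from the start of the principal transcript (nt, log axis) and its deposited log2 fold over input. The 81 enriched clusters are red, the 1259 others grey, and green rings mark the 52 over an NMD cassette exon. The dashed line is a log2 fold of 3 and the dotted line 2000 nt, and 72 of the 81 red points lie left of the dotted line.

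**Figure D3:**
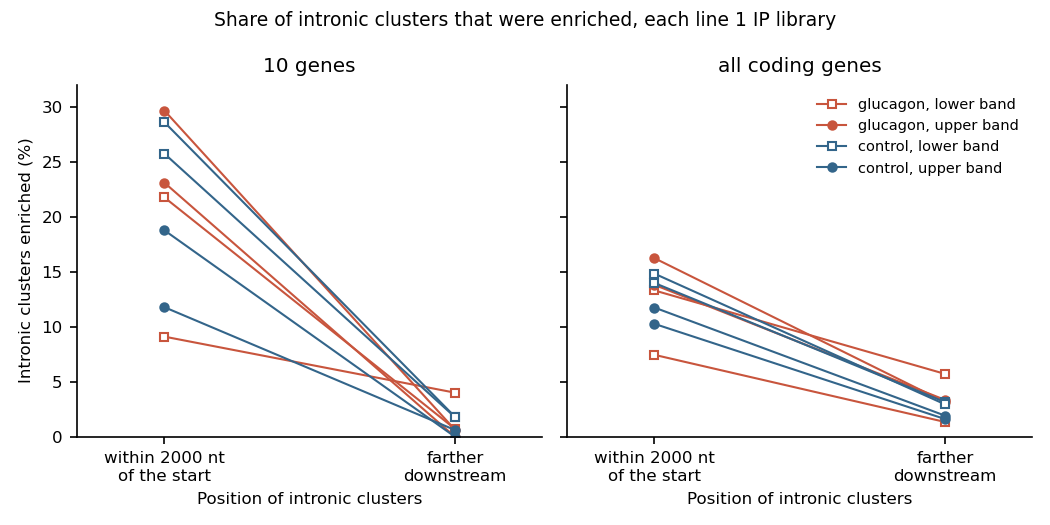
Share of intronic clusters that were enriched, within 2000 nt of the start and farther downstream, in the 10 genes (left) and all coding genes (right), each line 1 IP library. All 8 lines fall to the right in the left panel, and the near shares run from 9.09% to 29.6% there.

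Merging enriched peaks and the authors' listed peaks that lay within 10 nt of each other gave 26 sites. Of these, 21 were within 2000 nt of the start, 18 were in intron 1, 13 held a peak of the authors' reproducible lists, 7 were enriched in 4 or more libraries and 9 in 1 library only. A cluster, enriched or not, was present in at least 7 of the 8 libraries at 13 sites. Of 26 peaks that the authors listed in members, 25 lay within 2000 nt of the start and 23 in intron 1, and 13 coincided with enriched peaks of both replicates.

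**Figure D4:**
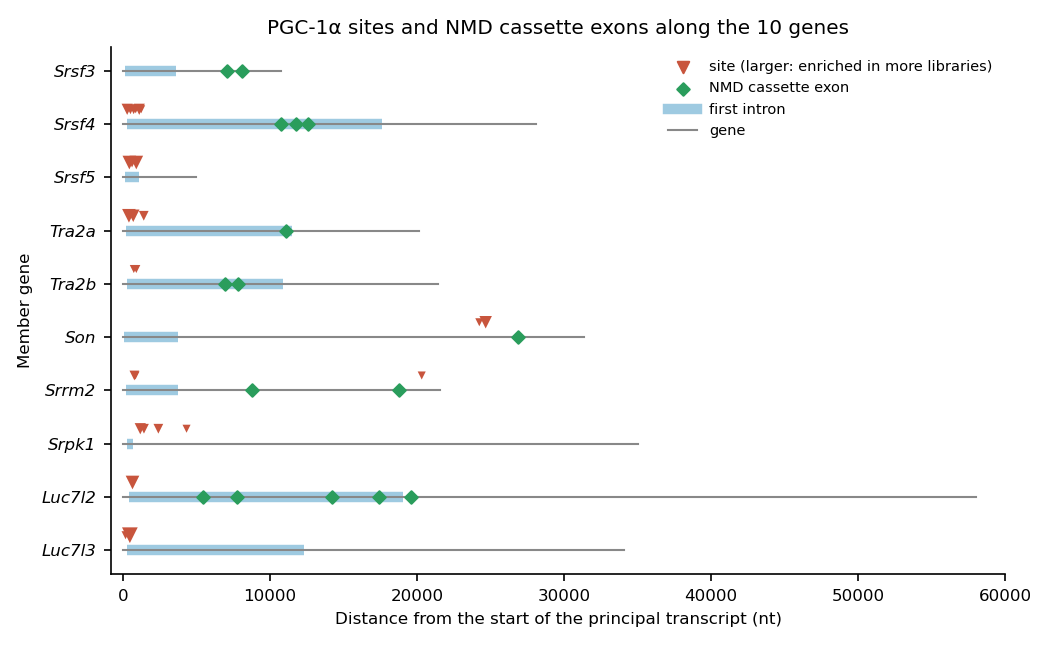
The 10 genes drawn to scale from the start of the principal transcript (nt), with the 26 sites as red triangles (larger where enriched in more libraries), NMD cassette exons as green diamonds and the first intron in blue. Red triangles crowd the left edge in 8 genes, the Son sites lie near 24671 nt, and Srsf3 has none.

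Among the SR proteins proper, Srsf4 was bound at the 5′ end of intron 1 and Srsf5 at sites along most of its short intron 1. Srsf3 had no enriched peak. SRSF5 is an SR protein first described in rat as the product of an insulin-induced gene of regenerating liver. Its gene (ENSMUSG00000021134.17, chr12:80945504-80950507) is the shortest of the 10, with a first intron of 903 nt that held all 17 enriched peaks and all 8 of its listed peaks. Site 1 (chr12:80945818-80946079, 444 nt from the start) had log2 folds of 2.79 and 3.22 in glucagon lower 1 and 2, 2.64 and 3.71 in glucagon upper 1 and 2, 2.68 and 3.31 in control lower 1 and 2, and 3.21 and 3.08 in control upper 1 and 2. Site 3 (chr12:80946292-80946550, 917 nt from the start), whose 3′ part is printed above, had 2.93 and 3.93 in glucagon lower 1 and 2, 3.03 and 3.53 in glucagon upper 1 and 2, 3.57 and 3.04 in control lower 1 and 2, and 2.997 and 2.70 in control upper 1 and 2. Both sites had a cluster in all 8 libraries and were enriched in 5, and the glucagon and control folds overlapped. The listed peak with the highest fold, 3.46 in the glucagon lower band list, was chr12:80946417-80946459.

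SRSF4 is a long SR protein with an extended RS domain. Srsf4 (ENSMUSG00000028911.16, chr4:131873617-131901706) had 12 enriched peaks at 6 sites, with midpoints 297 to 1248 nt from the start, all in intron 1, which is 17336 nt long. Site 1, over the exon 1 to intron 1 boundary, had log2 folds of 3.65 in glucagon lower 2 and 3.72 in glucagon upper 2, against 4.20 in control lower 2, 2.997 in control upper 1 and 2.25 in control upper 2, with no cluster in the other 3 libraries. Site 5 (chr4:131874704-131874765, 1117 nt from the start) was enriched in 0 of 4 glucagon libraries, where its folds were 2.79, 2.51 and 1.95 with no cluster in glucagon upper 1. In control libraries it was enriched in 3 of 4, with folds of 3.14, 1.75, 3.43 and 3.31. The groups overlapped, since control lower 2 was the lowest of the 7 values. The listed peak with the highest fold lay in this site, at 3.46 in the control upper band list.

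Srsf3 encodes the smallest SR protein, a splicing factor that mouse hepatocytes need to mature. It had 92 clusters over the 8 libraries, from 5 to 18 in a library, and none was enriched, although Srsf3 and Srsf5 had broadly similar cluster numbers (92 and 123). Its strongest cluster with a −log10 p of at least 3 had a log2 fold of 2.38 in control upper 1 (chr17:29040475-29040558, intron 3).

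TRA2A and TRA2B are paralogous SR-like splicing activators. Tra2a (ENSMUSG00000029817.11, chr6:49243924-49264033) had 12 enriched peaks at 3 sites, all in intron 1. Site 1 (chr6:49263453-49263774, 417 nt from the start) had log2 folds of 1.73 and 3.13 in glucagon lower 1 and 2, 3.12 and 3.89 in glucagon upper 1 and 2, 3.82 and 3.98 in control lower 1 and 2, and 2.91 and 2.90 in control upper 1 and 2. It was enriched in 3 glucagon and 2 control libraries, and both control lower band values lay above both glucagon lower band values, while both glucagon upper band values lay above both control upper band values. Site 2, printed above, was enriched in 1 glucagon and 3 control libraries, with folds of 2.57, 2.60 and 3.51 in glucagon libraries (no cluster in glucagon lower 1) and 3.40, 3.38, 2.55 and 3.88 in control libraries. These Tra2a sites also lie in the retained intron transcript Tra2a-203. The listed peak with the highest fold was chr6:49263475-49263546, at 3.88 in the control lower band list.

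Tra2b (ENSMUSG00000022858.16, chr16:22244549-22266005) rested on a single library. Its 3 enriched peaks, at 748 and 917 nt from the start in intron 1, were all in control upper 2. Site 1 (chr16:22265216-22265298) had a log2 fold of 4.81 there, 3.30 in glucagon lower 2 and 2.10 in glucagon upper 2, and 2.63, 2.20 and 2.08 in the other 3 control libraries. The value of 3.30 missed the −log10 p threshold. The list of the control upper band holds a peak at both sites, the stronger at 3.55.

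The speckle genes differed in where they were bound. Son (ENSMUSG00000022961.18, chr16:91647506-91679221) was the exception to the 5′ pattern, with all 7 enriched peaks in intron 8, 24238 nt or more from the start of its principal transcript, by the midpoints of the sites. Site 2 (chr16:91672438-91672662, 24671 nt from the start) had a cluster in all 8 libraries, with log2 folds of 3.01 and 2.89 in glucagon lower 1 and 2, 2.56 and 3.01 in glucagon upper 1 and 2, 2.96 and 3.42 in control lower 1 and 2, and 3.14 and 2.83 in control upper 1 and 2. All 8 values stood within 0.5 of the threshold of 3, and 4 libraries passed it, 2 glucagon and 2 control. This site lies in exons of the retained intron transcript Son-214, the processed transcript Son-206 and the NMD transcript Son-212. Its only listed peak had a log2 fold of 3.22 in the control lower band list and the highest −log10 p among the best listed peaks of the members, 15.6.

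Srrm2 (ENSMUSG00000039218.17, chr17:23790532-23824741) had 255 clusters but 4 enriched peaks and no listed peak. The 4 were spread over 3 sites and were all in control libraries, 1 in each. Its strongest, at log2 fold 4.28 in control lower 1 (chr17:23823496-23823525), lay in intron 12, where the other 4 libraries with a cluster had 1.86 and 0.80 (glucagon) and 1.07 and 1.73 (control). A gene with 0 enriched peaks in 4 glucagon libraries and 1 in each of 4 control libraries was below the 8 enriched peaks needed for a test.

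SRPK1 is the kinase that phosphorylates RS domains. Srpk1 (ENSMUSG00000004865.16, chr17:28587648-28622709) has a first intron of 362 nt, and its sites lay in intron 2, the nearest 1187 nt from the start. Site 1 (chr17:28621458-28621587) had log2 folds of 3.86 and 2.95 in glucagon upper 1 and 2 and no cluster in the glucagon lower band, against 4.40 and 4.86 in control lower 1 and 2, 1.63 in control upper 2 and no cluster in control upper 1. Over the gene, enriched peaks numbered 0 and 0 in glucagon lower 1 and 2, 2 and 0 in glucagon upper 1 and 2, 2 and 3 in control lower 1 and 2, and 1 and 0 in control upper 1 and 2. A site 2417 nt from the start, enriched in 2 control libraries, lies in the 3′UTR of a short coding transcript and in intron 2 of the principal one. The listed peak with the highest fold, 4.63 in the control lower band list, was chr17:28621458-28621522.

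LUC7L2 and LUC7L3 are the LUC7-like proteins of the set. Luc7l3 (ENSMUSG00000020863.15, chr11:94287890-94321988) held the strongest site of the 10 genes, chr11:94321386-94321631 on the minus strand, 480 nt from the start in intron 1. Its log2 folds were 3.54 in glucagon lower 2, and 3.86 and 5.05 in glucagon upper 1 and 2, against 4.14 and 5.0 in control lower 1 and 2, and 4.20 and 3.97 in control upper 1 and 2. The value of 3.86 had a −log10 p of 2.04 and missed the threshold, and the enriched peak at the site in that library had a log2 fold of 3.18. All 7 libraries with a cluster there held an enriched peak, the groups overlapped, and glucagon lower 1, with a single cluster in the whole gene, had none. It was the only site enriched in more than 5 libraries, and it held 4 listed peaks from 3 of the 4 lists, the strongest at 4.70 in the control lower band list.

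Luc7l2 (ENSMUSG00000029823.16, chr6:38551334-38609470), a gene lost or mutated in some human myeloid neoplasms, had the most clusters of the 10, 335, and 7 enriched peaks, all at 1 site. This site (chr6:38551956-38552258, 642 nt from the start) had log2 folds of 3.47 and 3.35 in glucagon lower 1 and 2, 1.57 and 3.89 in glucagon upper 1 and 2, 3.99 and 2.42 in control lower 1 and 2, and 2.47 and 3.05 in control upper 1 and 2. It was enriched in 3 glucagon and 2 control libraries, with overlapping folds. It was the only member site other than that of Son to be enriched in glucagon lower 1.

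**Figure D5:**
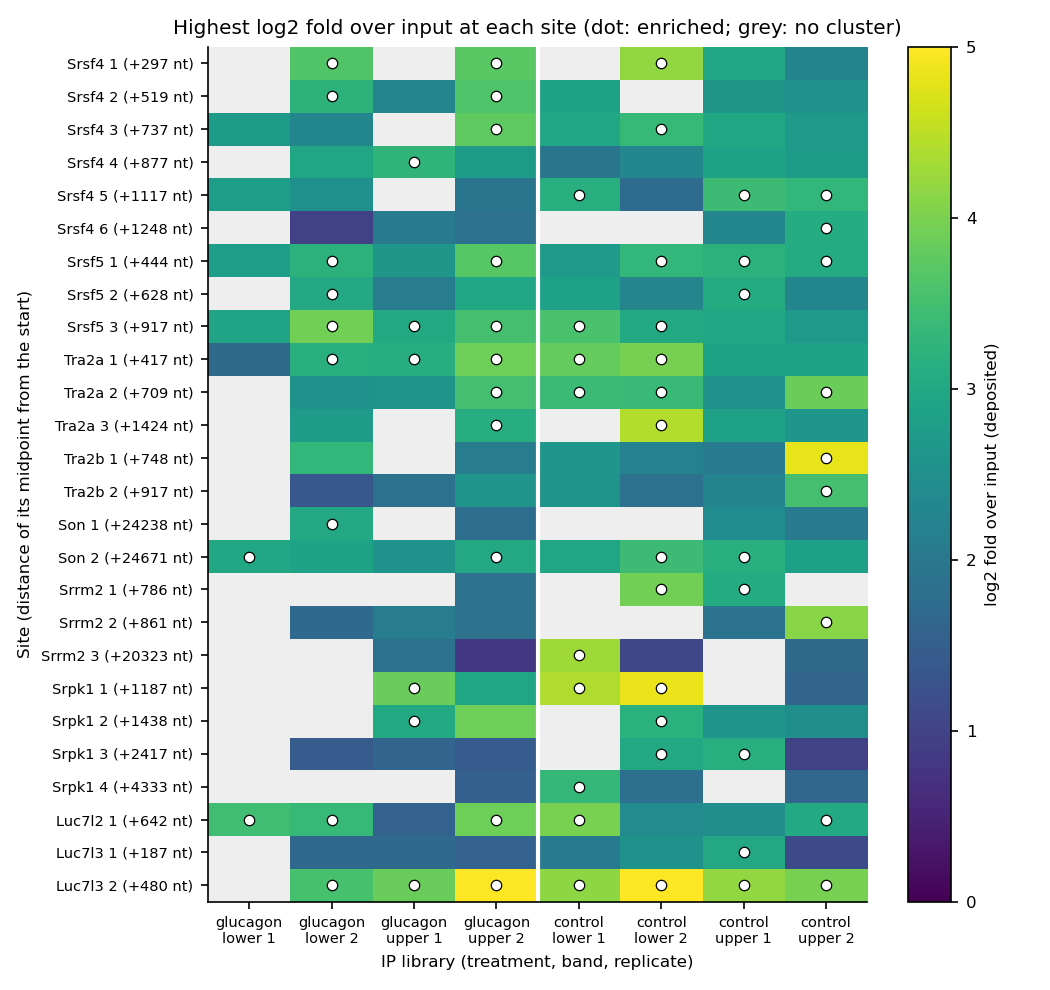
Highest deposited log2 fold over input at each of the 26 sites (rows, with the distance of the site's midpoint from the start in nt) in each IP library (columns, glucagon left, control right). White dots mark enrichment and grey cells have no cluster. The Luc7l3 site at 480 nt is dotted in 7 of 8 libraries, and the Tra2b sites are dotted in control upper 2 only.

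Exons found in NMD transcripts and outside the exons of coding transcripts did not carry enriched peaks in these genes. Exons of an NMD transcript that touched no exon of any protein-coding transcript of the gene were counted as NMD cassette exons. Whether each is internal to its transcript, or a known poison exon, was not checked. NMD exons that touch a coding-transcript exon were left out. Srsf5, Srpk1 and Luc7l3 had none, and the other 7 members had 16 in all. Clusters lay over 11 of them, 52 in all, and 0 of the 52 were enriched. A Luc7l2 block of 2353 nt held 19 of the 52. At the 0.890% enriched among member intronic clusters beyond 2000 nt, a count of 0 in 52 does not set these exons apart. Their median log2 fold over input was 1.06, beside 1.07 for all member intronic clusters beyond 2000 nt. An Srrm2 cassette exon (chr17:23811817-23812077) had a cluster in all 8 libraries, with highest log2 folds of 2.47, 2.72, 2.00 and 1.93 in glucagon libraries and 1.40, 1.56, 0.99 and 1.11 in control libraries. All 4 glucagon values lay above all 4 control values there, a site picked after its values were seen and not tested. It was the only one of the 16 exons with a cluster in all 8 libraries. The share of sites elsewhere that split this way is not given here. The highest fold over any cassette exon was 3.14, in Luc7l2 in control lower 1, and it missed the −log10 p threshold. The Tra2b cassette exons had 2 clusters in all, with log2 folds of 1.01 in glucagon upper 1 and 2.03 in control lower 2.

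A wider set of unproductive features held similar shares of enriched peaks and of all clusters at the thresholds used here. Exons of NMD and retained intron transcripts held 26 of the 81 enriched intronic peaks (32.1%) and 425 of the 1340 intronic clusters (31.7%), while they cover 16.5% of the members' intron bases. Exons of NMD transcripts alone held 7 of the 81 (8.64%) and 126 of the 1340 (9.40%). The share of enriched peaks moved with the threshold, to 45.7% with a log2 fold of at least 2, 18.2% with at least 4 and 40% with a −log10 p of at least 5. The 26 came from 7 sites in 4 genes, Srsf5, Tra2a, Son and Srrm2.

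At the thresholds used here, none of the 5 members that could be tested separated glucagon from control in the same direction in both bands. Tra2a separated in both bands, in opposite directions. Glucagon lay below control for Luc7l3 in the upper band and for Srpk1 in the lower band. How many other genes separate in a single band, or in opposite directions, is not given here. With 2 libraries against 2 such splits arise easily, so they only describe these genes. With the bands pooled, all 5 overlapped. Per 1000 enriched peaks of the library, the 10 genes together had 2.04 and 3.91 in glucagon lower 1 and 2, 1.82 and 2.24 in glucagon upper 1 and 2, 2.68 and 2.81 in control lower 1 and 2, and 1.83 and 1.84 in control upper 1 and 2. The means were 2.50 ± 0.951 with glucagon and 2.29 ± 0.528 in control (SD, n = 4 each), a difference of 0.214 that is smaller than the spread between libraries and carries no p, since the genes were chosen with results known. Without glucagon lower 2 the difference was -0.251, and without glucagon lower 1 it was 0.680. Its sign depended on the threshold and the scale. It was -0.467 per 1000 with a log2 fold of at least 2 (SD within groups 0.771), and -3 enriched peaks per library as plain numbers (SD within groups 5.43). It stayed positive with a −log10 p of at least 5, at 1.02 (SD within groups 1.40). Per 1000 enriched peaks outside Neat1 it was 0.324 (SD within groups 0.773).

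With a log2 fold of at least 4 the difference was -1.66 per 1000 such peaks, and larger than the SD within groups of 0.219. The members then had 1 peak among 4154 in glucagon libraries and 10 among 5478 in control libraries. Per library these were 0, 0, 0 and 1 with glucagon (lower 1 and 2, upper 1 and 2), against 3, 4, 1 and 2 in control. Per 1000, the glucagon libraries had 0, 0, 0 and 0.480, against 2.37, 2.50, 0.932 and 1.299 in control. Per 1000 the treatments did not overlap at this stricter threshold, on 11 peaks in all, and no p is given. The glucagon libraries held only 492, 597, 980 and 2085 such peaks over all genes, so values of 0 lie at the floor. Values at the floor also keep the SD within groups small. How often other genes split this way at this threshold is not given here, so these values only describe the members. The glucagon peak was at Luc7l3, and the control peaks were 3 at Luc7l3, 2 each at Srpk1 and Srrm2, and 1 each at Srsf4, Tra2a and Tra2b.

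A change in the amount of a gene's RNA and a change in PGC-1α bound per RNA cannot be told apart in these values beyond the ratio to input, nor can fewer cells be told apart from less RNA per cell.

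Of the 875 genes with at least 8 enriched peaks over the 8 libraries, 5 were members. In both bands, both glucagon libraries lay above both controls in 3.54% of the 875 genes, and below them in 14.7%, and the count among the 5 members was 0 in each direction. An exact permutation of treatment within bands (36 assignments, two-sided) cannot give a p below 0.0556, so no gene could pass 0.05, and 160 of the 875 genes stood at that smallest p with a lowest adjusted p of 0.304. With this exact permutation test 0 of 875 genes had an unadjusted p under 0.05.

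The tested members lay far from that limit. Srsf5 averaged 0.563 enriched peaks per 1000 with glucagon and 0.393 in control (exact permutation p = 0.778, adjusted over all 875 genes 0.925). Srsf4 averaged 0.352 with glucagon and 0.276 in control (exact permutation p = 0.778, adjusted 0.925). Luc7l3 averaged 0.352 with glucagon and 0.372 in control (exact permutation p = 0.944, adjusted 1). Tra2a averaged 0.263 with glucagon and 0.353 in control (exact permutation p = 0.722, adjusted 0.911), with effects of opposite sign in the bands. Srpk1 averaged 0.152 with glucagon and 0.304 in control, the widest ratio of the 5 (exact permutation p = 0.5, adjusted 0.758). Without glucagon lower 2, Luc7l3 lay below the controls in both bands. Its lower band value with glucagon then rested on glucagon lower 1 alone, with 1 cluster and 0 enriched peaks in the gene.

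Counted by site, 13 of the 26 were enriched in at least 1 library of each treatment, 3 with glucagon only and 10 in control only. The same split over sites of other genes is not given here, so these counts only describe the members. None of the 13 sites found in a single treatment was enriched in all 4 of its libraries, and the libraries of the treatments differed in how many enriched peaks they held, with 979, 2816, 3288 and 7603 for glucagon and 4110, 5694, 4929 and 6523 for control.

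In the authors' reproducible lists, 1 per group, 8 of the 10 genes had a listed peak, where 9.4% of the 13397 genes had one. The glucagon lower band list held 2 of the 10 (Srsf5 and Luc7l2), beside 0.866% of all genes, and the glucagon upper band list 5, beside 5.39%. The control lower band list held 5, beside 4.89%, and the control upper band list 6, beside 7.34%. The set was drawn up with these results known, so these counts describe the set and support no statement about it.

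Relative to the library, the members had fewer enriched peaks in the upper than in the lower band. Per 1000 they averaged 1.93 ± 0.203 in the upper band and 2.86 ± 0.774 in the lower band (SD, n = 4 each), a difference of -0.927 against an SD within groups of 0.676. The libraries overlapped with glucagon (1.82 and 2.24 in the upper band, 2.04 and 3.91 in the lower band) and not in control (1.83 and 1.84 in the upper band, 2.68 and 2.81 in the lower band). Without glucagon lower 1 the difference was -1.39, and without glucagon lower 2 it was -0.461. As plain numbers the order turned round, with 11 ± 4.69 enriched peaks per library in the upper band and 10 ± 5.83 in the lower band. Both upper band libraries lay above both lower band libraries in each treatment in 9.49% of the 875 genes, and below them in 4%, and 0 of the 5 members did either.

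Across the 8 libraries, the genes whose enriched peaks per 1000 followed the members' sum most closely were Nedd4l (Pearson r 0.95), Wwc1 (0.89), Hivep2 (0.85), Rreb1 (0.85) and Tns1 (0.77), among 199 genes with at least 40 enriched peaks. These are the highest values of many over 8 points that share libraries and their depth, given as a description.

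Of 37 other genes of SR protein biology, 35 had a cluster and 4 had a listed peak, a share near the 9.4% of all genes with a cluster. None of the other 8 SR proteins (7 with a cluster) and none of the other 6 SR protein kinases (5 with a cluster) had a listed peak, which at 9.4% does not set numbers this small apart from other genes. Tnpo1, an import receptor of the transportin family, had 10 listed peaks and 26 enriched peaks, 14 in glucagon and 12 in control libraries. Whether it carries SR proteins was not checked here. Tnpo3, the other transportin of the list, had 0 listed peaks and 1 enriched peak. Bclaf1, an RS-rich speckle protein, had 3 listed and 11 enriched peaks, Sf1, which binds the branch point, 2 and 5, and the splicing regulator Srek1 1 and 4. Of the 37, 2 could be tested and 0 separated by treatment in both bands (Tnpo1 exact permutation p = 0.111, Bclaf1 exact permutation p = 0.278).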

How the data were processed

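The 8 IP libraries and 4 reproducible lists were deposited as peak tables with no header. Per the submitters' processing notes, cutadapt and STAR were used with mm10. Tool versions, the peak caller and the list rule were not given in the sources used here. From the values, the authors' deposited columns are a −log10 p (capped at 400) and a log2 fold of IP over input. No read counts were used, so depth is unknown and no counting interval is given.

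Each cluster was assigned by its midpoint and strand to genes of GENCODE M21, and to coding exon, UTR, intron within 500 nt of an exon or deeper intron. Distances run from the 5′ end of the principal transcript. Enriched peaks were counted per 1000 enriched peaks of the library. Treatment was tested by an exact permutation within bands with Benjamini-Hochberg adjustment over 875 genes, a step tested on simulated data. Each member was described by its listed peak with the highest fold or, with none, its strongest cluster. The other pathway genes named are those with most listed peaks. Replicate numbers were not used as pairs, since replicate differences correlated by 0.00706 to 0.103 between groups. Alternatives were the fold and p thresholds, the scale, the overlap with listed peaks and each library left out. The members and lists were chosen with earlier results of these data known. Computations ran in Python 3.11.15 with pandas 2.3.3, numpy 2.4.6, scipy 1.17.1 and matplotlib 3.10.9.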

Additional observations from a re-analysis of the deposited data

Results flagged for a closer look

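Tra2a had treatment effects of opposite sign in the bands. Glucagon minus control was 0.273 enriched peaks per 1000 in the upper band and -0.451 in the lower band, a gap of 0.724, and every library of each band lay on its band's side. The difference between the bands was not tested, and it rests on 5 enriched peaks in the 4 glucagon libraries and 7 in the 4 control libraries. How many other genes split this way is not given here.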

How the results depend on the processing

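The members' enriched share of clusters was 11.7% with a log2 fold of at least 2, 0.494% with at least 4, and 2.79% with a −log10 p of at least 5, against 4.10%. With a log2 fold of at least 4, glucagon minus control was -1.66 (SD within groups 0.219) and upper minus lower -0.540 per 1000, and upper minus lower was 1 as plain numbers. Srsf4 turned from higher to lower with glucagon at a log2 fold of at least 2 (-0.0846) and at least 4 (-0.157). Requiring an enriched peak in both libraries left 1, 3 and 3 members in the glucagon lower, glucagon upper and control upper lists; requiring overlap over at least 50% of the listed peak left 0, 3 and 2, and 5 in any list. The cause was not tested. Leaving out each library in turn gave ranges of -0.251 to 0.680 for glucagon minus control, -1.39 to -0.461 for upper minus lower, 0 to 1 separated members, -0.197 to 0.158 for Luc7l3, -0.304 to 4.39e-05 for Srpk1, -0.101 to 0.254 for Srsf4, -0.186 to 0.525 for Srsf5 and -0.178 to -0.000289 for Tra2a. With the replicate number as a block, the members' glucagon minus control stayed at 0.214, and exact permutation p-values were 0.5 to 0.875 for the 5 genes, where 0.125 is the smallest possible. Glucagon minus control also turned sign at a log2 fold of at least 2 (-0.467) and as plain numbers (-3), by less than the spread within groups. These are among 80 alternatives for summary values that stayed within the spread, or within 1.5 times for counts. Of the other alternatives for summary values, 17 were classed as moved and 1 as reversed. A further 75 for single genes and the near-start share kept their direction, and 8 reversed. The share at NMD and retained intron exons was 45.7% with a log2 fold of at least 2, 18.2% with at least 4 and 40% with a −log10 p of at least 5. Settings added after seeing the data put 72.8% of enriched intronic peaks within 1000 nt, 90.1% within 5000 nt and, without glucagon lower 1, 89.9% within 2000 nt. Read depth is unknown, and what it limits was not tested.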
